A study of Mus musculus with 6 samples.

Results

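The genes described here were picked by symbol, and most encode enzymes that add methyl groups to, or remove them from, lysines of histones. They were measured in pancreatic islets of 10-week-old male OF1 mice, an outbred albino strain, after bisphenol A (BPA), a plasticizer with weak oestrogen-like activity, or after its vehicle. Members were the probe sets annotated with a single current gene symbol that begins with Kmt, Kdm or Setd and a digit, or that is one of a short list of further enzymes (Ezh1, Ezh2, Nsd1, Dot1l, Ehmt1, Ehmt2, Suv39h2, Prdm2 and Smyd2 among those found). This gave 119 probe sets of 43 genes, out of 45037 probe sets and 18193 named genes on the array. Another 2 genes of that list, Suv39h1 and Ash1l, were not analysed here.

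Islet RNA from 3 vehicle samples and 3 BPA samples was hybridised to 6 Affymetrix arrays, starting from 1 µg of total RNA. The labels give more than 1 account of the treatment. In the design text, mice received 100 µg/kg/day of BPA, divided into injections of 50 µg/kg, over 4 days, or 100 µL of corn oil, and islets were taken 16 hours after the final injection. The treatment protocol speaks of 2 days, and 1 nM for 48 hours is written in the BPA samples' source names. No genetic change is named in either group, and both groups are whole islets of the same strain. Samples are called biological replicates, but no source used here gives the number of animals behind each, so the p-values measure the spread between these 6 samples.

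Histone lysine methylation marks chromatin states: methylation of histone H3 lysine 4 (H3K4) and H3K36 is found at active genes, and methylation of H3K9, H3K27 and H4K20 at silent or compacted chromatin. Methyltransferases (writers) transfer the methyl group from S-adenosylmethionine, most of them through a SET domain. Demethylases (erasers) belong either to the LSD family, which uses FAD, or to the JmjC family, which uses iron and 2-oxoglutarate. In beta cells, Ezh2 with Polycomb repressive complex 2 is known to restrain the senescence gene Cdkn2a and to support proliferation, and Menin, a partner of Kmt2a, acts on the cell cycle inhibitors of the same cells.

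Values are the log2 signals of the deposited table, with 1 value per probe set and array; 1 unit is a doubling. Testing was limited to probe sets whose mean signal exceeded the median over the array (6.60), called kept here, which left 79 member probe sets of 41 genes out of 22518. Of the member probe sets, 40 were below that filter, and Kdm4d and Suv39h2 had none above it. The filter used the mean over all 6 arrays. Differences are BPA minus vehicle, with the standard error of the limma fit. Signals of different probe sets depend on their own probes, so levels are not ranked between genes. Within a gene, the kept probe set with the highest mean is called the brightest, only to choose 1 per gene. That choice can be close: for Kmt2c the means of 1427150_at and 1434178_at were 10.54 and 10.50.

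The islet hormone Ins2 read 15.24 to 15.32 on the 6 arrays, and the summed signal of 8 endocrine markers covered 17.35 to 17.41 (log2) in vehicle and 17.33 to 17.48 in BPA samples. Acinar markers, 8 measured, had summed signals of 15.45 to 17.45 and 16.53 to 17.58, so exocrine RNA was present in both groups. The 6 glial and nerve markers measured had a summed signal of 10.54 to 10.85 in vehicle and 10.98 to 11.41 in BPA samples, with none of the 6 below 0 in its difference. Of these 6, only Th was without overlap between the groups. Their mean signal did overlap, at 7.19 to 7.83 in vehicle and 7.77 to 8.14 in BPA samples. Duct (6 markers), endothelial (8), stellate (10), immune (10) and proliferation (9) markers overlapped between the groups in their summed signal. Of 65 single markers, 8 were higher in every BPA array, beside 8.48% of all genes with a kept probe set. They were endothelial Emcn and Esam, immune C1qa and Cd68, Th, Iapp, Pcna and Tagln. In the other direction, 1 marker, the beta cell factor Pdx1, was lower in every BPA array, beside 3.53%. Some of the 65 markers, Cd68 among them, lay below the filter, while both shares cover kept probe sets only. Among the 8 endothelial and 10 immune markers, 4 and 3 had differences below 0. Cd68, a macrophage marker below the filter, read 5.75 to 6.14 in vehicle and 6.58 to 7.75 in BPA samples; the part of these markers in the results was not tested. The balance of 3' over 5' control probe sets for actin and Gapdh, a sign of RNA integrity and labelling, was 3.42 to 3.79 (log2) in vehicle and 2.60 to 2.99 in BPA samples. Over all 45037 probe sets, control 3 correlated more with BPA 3 (r = 0.993) than with control 1 (0.985) or control 2 (0.986). In whole islets, fewer cells of a type and less RNA per cell cannot be told apart.

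Member promoters are shown first for the genes whose values follow. RefSeq windows (mouse assembly GRCm38.p6) of 300 bases, 250 before to 50 after each annotated start, were found for 33 member genes and numbered 44. Segments were extracted for Kmt2c, Kmt2a, Kdm5b and Kdm7a, which each had a probe set lower in every BPA array. Those of Kmt2c and Kdm7a are printed below because no other gene lay in their windows. For the other genes with such a probe set, no segment was extracted. Each holds bases upstream of the annotated gene only, and capitals mark GC boxes (GGGCGG or its reverse complement CCGCCC), the core motif bound by Sp1-family factors. Kmt2c covers chr5:25498856-25499033, minus strand, 178 bases, and Kdm7a covers chr6:39206774-39207023, minus strand, 250 bases.
Kmt2c: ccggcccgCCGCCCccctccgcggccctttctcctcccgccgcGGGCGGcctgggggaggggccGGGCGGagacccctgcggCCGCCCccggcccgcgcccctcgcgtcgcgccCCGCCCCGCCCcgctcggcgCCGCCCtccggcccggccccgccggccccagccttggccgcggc
Kdm7a: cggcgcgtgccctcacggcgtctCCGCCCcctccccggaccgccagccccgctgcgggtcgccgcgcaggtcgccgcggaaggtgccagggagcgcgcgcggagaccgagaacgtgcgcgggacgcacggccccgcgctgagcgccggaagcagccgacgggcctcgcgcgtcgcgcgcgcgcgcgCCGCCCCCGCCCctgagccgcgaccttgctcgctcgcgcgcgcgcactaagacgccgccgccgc
The Kmt2c segment held 7 GC boxes and 32 CpG dinucleotides, and the Kdm7a segment 3 GC boxes and 56 CpG dinucleotides. Over all member windows, 68.2% held a GC box on either strand, against 35.7% of 32851 windows of all genes. A TATA box (TATAAA) was in 2.27% of member windows, against 13.6% of all. The consensus oestrogen response element, a palindrome with a spacer, was in 0 of 44 member windows and in 0.07% of all windows. Member windows had a median of 28 CpG dinucleotides and all windows a median of 7. Neither printed segment held a TATA box or oestrogen response element, and counted GC boxes may share bases, as in the longest capital run of the Kmt2c segment.

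No member probe set passed an adjusted p of 0.05 (Benjamini-Hochberg over all kept probe sets, limma), where 0% of all kept probe sets were called. At an unadjusted p under 0.05, 9 member probe sets were lower after BPA and 0 were higher, beside backgrounds of 2.64% lower and 3.84% higher. In 12 of the 79, every BPA array lay below every vehicle array, which is 15.2% of the members. Over all kept probe sets, 4.35% lay lower in that way and 7.83% higher, and 0 member probe sets lay higher. The difference was below 0 for 63 of 79, against 47.4% of all kept probe sets. The median member difference was -0.085, with a range of -0.71 to 0.37, against a median of 0.011 over all kept probe sets. The smallest adjusted p of a member was 0.655. The lean below 0 was that of the kept probe sets. Of the 40 member probe sets below the filter, which were not tested, 18 had differences below 0. Among those 40, 1 was lower and 0 were higher without overlap.

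Counted once per gene on its brightest kept probe set, 32 of 41 member genes had a difference below 0, against 42.3% of all 11787 genes. Their median was -0.071 and that of all genes 0.028. Of these 41 genes, 5 (Kmt2c, Prdm2, Kdm5b, Kdm6a and Smyd2) were lower without overlap and 0 higher, beside backgrounds of 3.53% and 8.48%. Taking any kept probe set, 11 genes were lower without overlap and 0 higher, beside 6.54% and 12.4% of all genes. Writers and erasers both lay mostly below 0: 38 of 43 writer probe sets with a median of -0.13, and 25 of 36 eraser probe sets with a median of -0.067. The difference between writers and erasers was not tested.

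**Figure D1:**
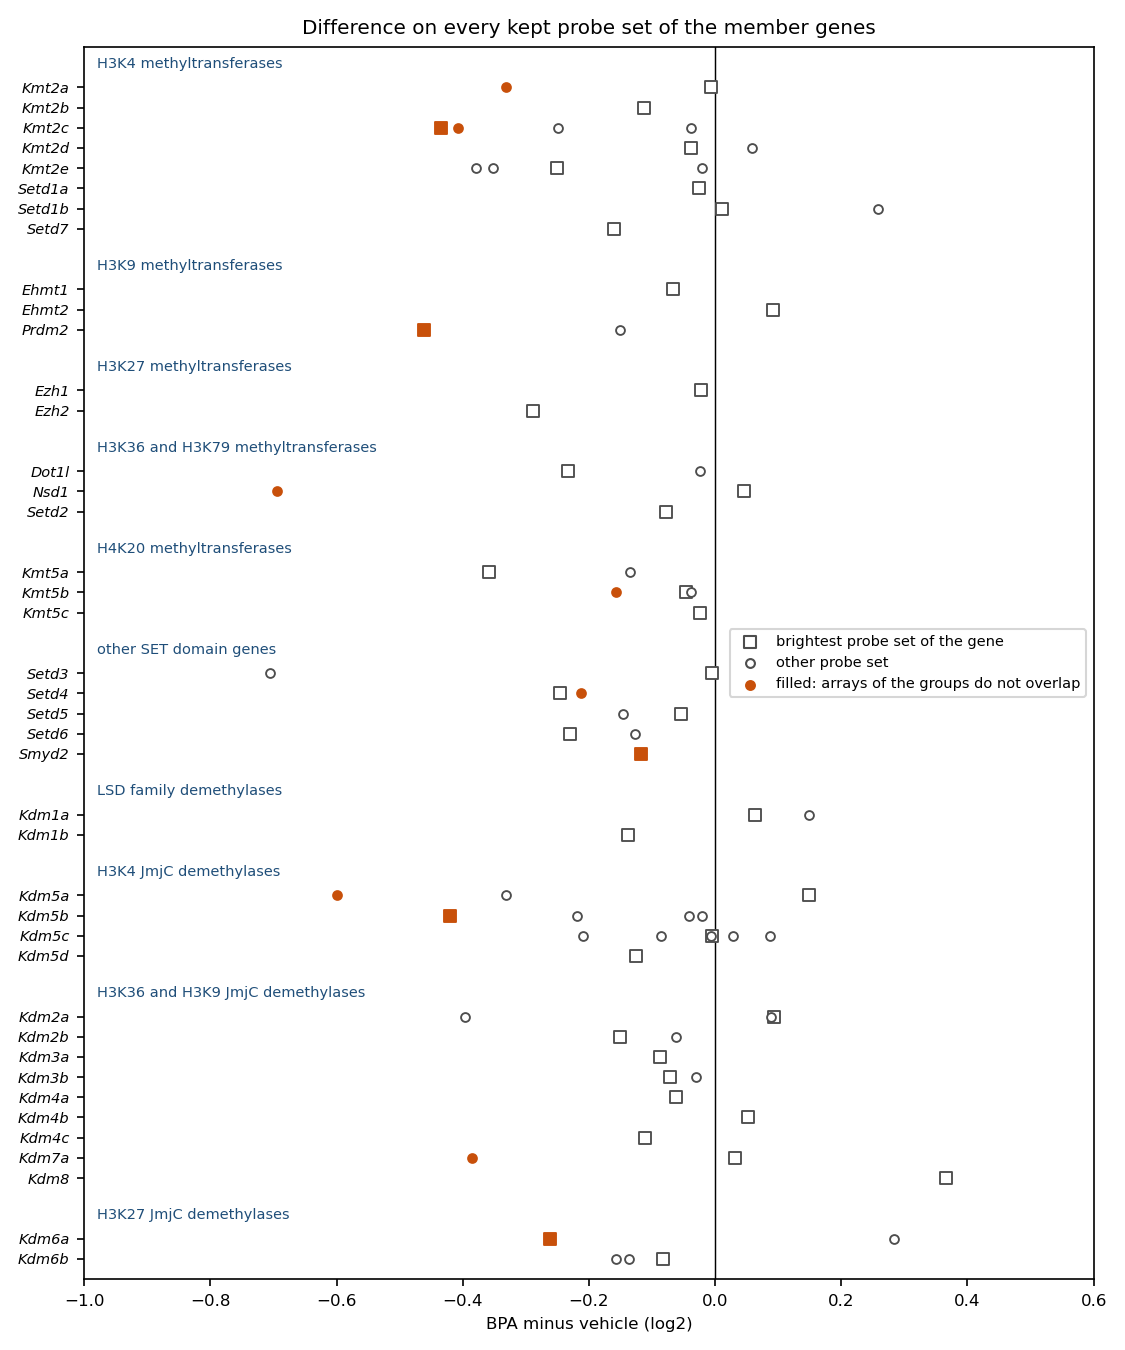
Difference between BPA and vehicle means (log2) on every kept probe set of the 41 genes, grouped by the mark the enzyme acts on; squares are the brightest probe set of a gene, circles the others, and filled symbols have no overlap between the arrays of the groups. All 12 filled symbols lie below 0, and for 7 genes the probe sets fall on both sides of 0.

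The H3K4 methyltransferases contributed 17 kept probe sets, of which 14 had differences below 0 (median -0.11). Without overlap, 3 were lower, beside 4.35% of all kept probe sets. Kmt2c and Kmt2e gave 4 of the probe sets each. Counted once per gene, 7 of 8 were below 0, with a median of -0.075. Kmt2c (Mll3), a catalytic subunit of the COMPASS-like complex that monomethylates H3K4 at enhancers, was measured by 4 probe sets, all kept. On its brightest probe set, 1427150_at, the vehicle arrays read 10.81, 10.78 and 10.69 and the BPA arrays 10.28, 10.42 and 10.27. The SDs were 0.06 and 0.08 (3 arrays each), and every BPA array was below every vehicle array. The difference was -0.43 ± 0.10, or 1.35-fold lower, with an unadjusted p of 0.00364 and an adjusted p of 0.655 by limma.

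A second Kmt2c probe set, 1457193_at, read 8.45, 8.22 and 8.76 in vehicle and 8.04, 8.06 and 8.11 in BPA samples, a difference of -0.41 ± 0.16 (adjusted p 0.747). Its groups did not overlap either, and its BPA arrays lay within a much narrower range than its vehicle arrays. Without control 3 the difference was -0.27. Probe set 1434178_at read 10.86, 10.34 and 10.66 in vehicle and 10.40, 10.53 and 10.19 in BPA samples (-0.25 ± 0.17, adjusted p 0.842). Probe set 1434179_at read 10.22, 9.88 and 10.11 against 9.86, 10.30 and 9.94 (-0.038 ± 0.160, adjusted p 0.976). On both of these the groups overlapped, and the annotation lists both under a single GenBank entry. All 4 differences of Kmt2c were below 0, and they spanned -0.43 to -0.038.

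Kmt2a (Mll1), the founding MLL-family H3K4 methyltransferase and a partner of Menin, had 2 kept probe sets, listed under the same GenBank entry. On 1452377_at, vehicle arrays read 8.21, 8.03 and 8.11 and BPA arrays 7.80, 7.87 and 7.69. The groups did not overlap, and the difference was -0.33 ± 0.11 (1.26-fold lower, adjusted p 0.708). On the brighter 1427283_at, vehicle arrays read 9.52, 9.70 and 9.79 and BPA arrays 9.54, 9.64 and 9.80, a difference of -0.0072 ± 0.127, with overlap. The lower reading thus appeared on 1 of its 2 kept probe sets.

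Kmt2e (Mll5), a SET domain protein with little known catalytic activity, had differences of -0.25 ± 0.12, -0.38, -0.35 and -0.020 on 4 kept probe sets, all with overlapping groups. On their brightest probe sets, Kmt2b differed by -0.11 and Kmt2d, the closest paralogue of Kmt2c, by -0.038. Setd1a and Setd1b, the catalytic subunits of the complexes behind most H3K4 trimethylation, differed by -0.026 and 0.011, and the other Setd1b probe set by 0.26. Setd7, a monomethyltransferase abundant in beta cells, differed by -0.16. None of these reached an unadjusted p under 0.05.

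Among the H3K9 methyltransferases, with 4 kept probe sets, 3 lay below 0. Prdm2 (Riz1), a PR-domain zinc finger protein with H3K9 activity, read 10.70, 10.85 and 10.69 in vehicle and 10.07, 10.25 and 10.55 in BPA samples on 1453068_at. The BPA arrays were all lower, with BPA 3 closest to the vehicle range. The difference was -0.46 ± 0.15 (1.38-fold lower, adjusted p 0.674). The other Prdm2 probe set, 1429251_at, is listed under the same GenBank entry and read 10.47, 10.04 and 10.47 against 9.89, 10.07 and 10.57 (-0.15 ± 0.21), with overlap. When the 3' to 5' balance of each array was added to the fit, 1453068_at had a difference of 0.15, so its direction was not kept there. Ehmt1 and Ehmt2 (GLP and G9a), which together form the main euchromatic H3K9 dimethyltransferase, differed by -0.067 and 0.091.

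Both H3K27 methyltransferases, Ezh1 and Ezh2, the alternative catalytic subunits of Polycomb repressive complex 2, had 1 kept probe set each. Ezh2 read 7.18, 7.22 and 7.77 in vehicle and 7.04, 6.87 and 7.39 in BPA samples (-0.29 ± 0.21), with overlap. In each group the replicate 3 array was the highest for Ezh2. The mean signal of the 9 proliferation markers was also highest in those arrays, at 8.06 and 8.004 against 6.93 to 7.24 in the other 4; its part in the Ezh2 values was not tested. Ezh1 differed by -0.023.

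Nsd1, an H3K36 dimethyltransferase, gave the member with the lowest adjusted p within its role group and a clear disagreement between probe sets. On 1440972_at, vehicle arrays read 7.62, 7.47 and 8.01 and BPA arrays 6.89, 6.98 and 7.15. The groups were separate, and the difference was -0.69 ± 0.17 (1.62-fold lower, unadjusted p 0.00459 and adjusted p 0.655 by limma). On the brightest Nsd1 probe set, 1435088_at, the values were 10.05, 10.18 and 10.21 against 10.08, 10.30 and 10.19 (0.046 ± 0.111). These are nearly level in both groups. Setd2, which adds the third methyl group at H3K36, differed by -0.079, and Dot1l, the H3K79 methyltransferase, which lacks a SET domain, by -0.23 on its brightest probe set.

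All 6 kept probe sets of the H4K20 methyltransferases had differences below 0 (median -0.091). Kmt5a (Set8), which monomethylates H4K20 in the cell cycle, differed by -0.36 ± 0.16 on its brightest probe set, with overlap. Kmt5b, which methylates H4K20 further, read 9.31, 9.30 and 9.32 in vehicle and 9.17, 9.11 and 9.17 in BPA samples on 1455171_at. The arrays of each group lay close together and the groups were separate, at -0.16 ± 0.10. Its brightest probe set differed by -0.047, and Kmt5c by -0.024.

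The remaining SET domain genes act on other or several substrates, and all 9 of their kept probe sets had differences below 0 (median -0.15). Smyd2, which methylates H3K36 and proteins such as p53, read 11.78, 11.72 and 11.70 in vehicle and 11.61, 11.68 and 11.56 in BPA samples (-0.12 ± 0.09), without overlap. Setd4 read 7.70, 7.82 and 7.94 against 7.60, 7.53 and 7.69 on 1425239_at (-0.21 ± 0.12), also without overlap, and differed by -0.25 on its brightest probe set. Neither reached an unadjusted p under 0.05. Setd5 and Setd6, the latter a methyltransferase of the NF-kB subunit RelA, differed by -0.054 and -0.23.

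Setd3, the actin histidine methyltransferase, had the widest array-to-array spread of all members. Its probe set 1440163_at read 8.68, 9.99 and 10.56 in vehicle and 8.61, 8.05 and 10.45 in BPA samples. Within each group the values spanned over a unit, and the difference of -0.71 ± 0.71 had an adjusted p of 0.889. The brightest Setd3 probe set, 1451748_a_at, read 10.62, 10.45 and 10.43 against 10.54, 10.70 and 10.24 (-0.0053 ± 0.145).

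**Figure D2:**
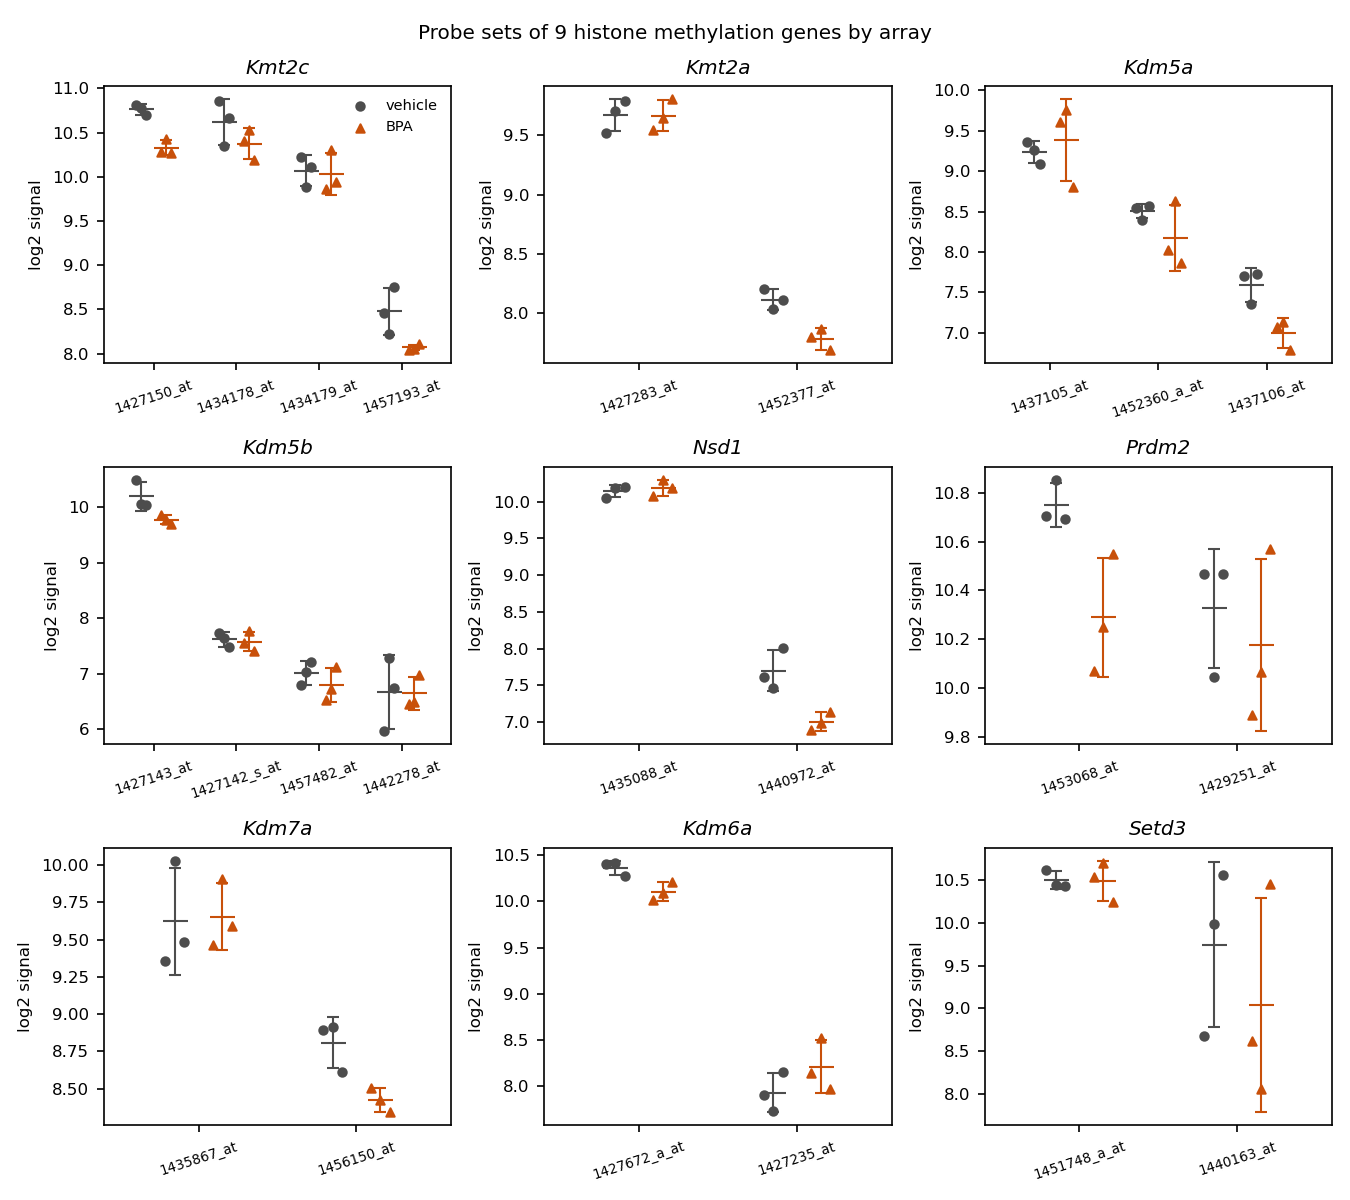
Log2 signal of every kept probe set of 9 genes in the 3 vehicle (circles) and 3 BPA (triangles) arrays, with the mean and SD of each group. Kmt2c 1427150_at lies at 10.69 to 10.81 in vehicle and 10.27 to 10.42 in BPA arrays, while Nsd1 1435088_at and Kmt2a 1427283_at overlap and Setd3 1440163_at spreads from 8.05 to 10.56.

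Turning to the erasers, the H3K4 demethylases of the JmjC family had 14 kept probe sets, with 11 below 0 (median -0.063). That number was 9 under quantile normalization, 8 under median centring and 12 under cyclic loess. Without overlap, 2 were lower, beside 4.35% of all kept probe sets. Kdm5a (Jarid1a), which removes H3K4 di- and trimethylation, read 7.70, 7.35 and 7.73 in vehicle and 7.07, 7.13 and 6.78 in BPA samples on 1437106_at. All BPA arrays were lower, and the difference was -0.60 ± 0.16 (1.51-fold lower, unadjusted p 0.00712 and adjusted p 0.655 by limma). Its probe set 1452360_a_at read 8.54, 8.40 and 8.57 against 8.02, 8.63 and 7.87 (-0.33 ± 0.21). The brightest, 1437105_at, read 9.35, 9.26 and 9.09 against 9.60, 9.75 and 8.80 (0.15 ± 0.25). The first and last of these 3 probe sets are listed under the same GenBank entry and pointed in opposite directions as reported. Probe set 1437105_at was at -0.035 without BPA 2 and at -0.52 with the 3' to 5' balance as a covariate. Both then pointed down, but that balance was separate between the groups, so the value with the covariate is description only.

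Kdm5b (Jarid1b), the paralogue of Kdm5a, read 10.49, 10.06 and 10.03 in vehicle and 9.86, 9.77 and 9.70 in BPA samples on its brightest probe set, 1427143_at. Control 1 stood above the other vehicle arrays, and all BPA arrays were lower. The difference was -0.42 ± 0.15 (1.34-fold lower, adjusted p 0.734), and -0.27 without control 1. Its other 3 kept probe sets differed by -0.22, -0.041 and -0.021 with overlap. Probe set 1457482_at read 6.79, 7.04 and 7.21 against 6.53, 6.72 and 7.12, and 1427142_s_at 7.74, 7.65 and 7.47 against 7.56, 7.76 and 7.42. Kdm5c, the X-linked member of this subfamily, had 6 kept probe sets with differences from -0.21 to 0.087, all overlapping. Its Y-linked homologue Kdm5d differed by -0.13.

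Of the 14 kept probe sets of the demethylases that act on H3K36 and H3K9, 9 were below 0 (median -0.062). Only 1 was lower without overlap, beside 4.35% of all kept probe sets. That 1 belonged to Kdm7a, a PHD-finger demethylase of H3K9 and H3K27, which read 8.90, 8.92 and 8.61 in vehicle and 8.50, 8.43 and 8.34 in BPA samples on 1456150_at. The difference was -0.38 ± 0.13 (1.31-fold lower, adjusted p 0.701). Its brightest probe set, 1435867_at, read 9.35, 10.03 and 9.49 against 9.46, 9.91 and 9.59 (0.031 ± 0.211), with overlap. Kdm8 (Jmjd5) had the highest difference of any member, 0.37 ± 0.20, from 6.22, 6.78 and 6.90 in vehicle and 6.84, 7.05 and 7.10 in BPA samples, which overlap.

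The other JmjC genes of this group differed by -0.15 to 0.094 on their brightest probe sets. Kdm2a and Kdm2b, CXXC-domain proteins that bind CpG islands, differed by 0.094 and -0.15. Kdm3a and Kdm3b, H3K9 demethylases, differed by -0.087 and -0.071. Kdm4a, Kdm4b and Kdm4c, which remove H3K9 and H3K36 trimethylation, differed by -0.062, 0.052 and -0.11.

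The H3K27 demethylases had 5 kept probe sets, with 4 below 0 (median -0.14). Kdm6a (Utx), an X-linked H3K27 demethylase that sits in the same complexes as Kmt2c and Kmt2d, read 10.40, 10.42 and 10.28 in vehicle and 10.01, 10.09 and 10.21 in BPA samples on 1427672_a_at. The groups did not overlap (-0.26 ± 0.11, 1.20-fold lower, adjusted p 0.756). Its other kept probe set, 1427235_at, read 7.90, 7.73 and 8.15 against 8.14, 8.52 and 7.97 (0.28 ± 0.19) and overlapped. Another Kdm6a probe set, 1445198_at, lay below the filter and was not tested; it read 5.33, 5.36 and 5.39 in vehicle and 4.73, 4.66 and 5.02 in BPA samples. Kdm6b (Jmjd3) differed by -0.083.

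The LSD family had 3 kept probe sets, 2 of them of Kdm1a, with a median of 0.062; counted once per gene, its median was -0.038. Kdm1a (LSD1), which removes H3K4 mono- and dimethylation as part of CoREST, differed by 0.062 and 0.15, and Kdm1b by -0.14. All of these overlapped between groups. The sign of each role group's median over probe sets was the same under quantile normalization, median centring and cyclic loess. The number of probe sets below 0 changed in some groups, most in the H3K4 demethylases.

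Probe sets of 1 gene were then compared with each other, since 24 member genes had at least 2 kept probe sets and 7 had differences on both sides of 0. For each array, the log2 signal of the brightest probe set was subtracted from that of each other one, and these 7599 within-gene differences, 38 of them from members, were compared between groups by limma. None of the 38 passed an adjusted p of 0.05, where 0% of all were called, and the smallest adjusted p was 0.548. Without overlap, 4 member differences were lower and 5 higher after BPA, beside backgrounds of 5.76% and 8.45%. At an unadjusted p under 0.05, 3 were lower and 4 higher, beside 4.15% and 4.17%.

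For Nsd1, 1440972_at minus the brightest probe set was -2.42, -2.71 and -2.20 in vehicle and -3.19, -3.32 and -3.04 in BPA samples. Every BPA array was lower, by -0.74 ± 0.18 (unadjusted p 0.00403, adjusted p 0.548 by limma). For Kdm5a, 1437106_at minus the brightest was -1.65, -1.91 and -1.36 against -2.53, -2.62 and -2.02, a difference of -0.75 ± 0.22 with the same adjusted p. Kmt2c ran the other way: 1434179_at minus 1427150_at was -0.59, -0.90 and -0.59 in vehicle and -0.43, -0.12 and -0.33 in BPA samples (0.40 ± 0.14, adjusted p 0.567). For Kdm6a the difference between probe sets was 0.55 ± 0.23 (adjusted p 0.591), with overlap. The disagreement between probe sets of these genes thus appeared at unadjusted p only.

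**Figure D3:**
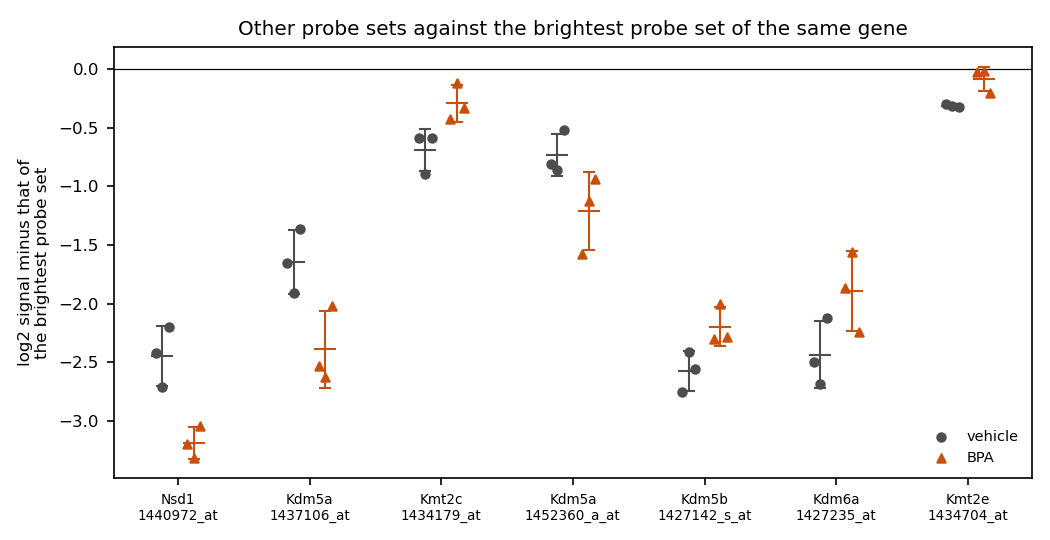
Log2 signal of another probe set minus that of the brightest probe set of the same gene, in vehicle (circles) and BPA (triangles) arrays, with group mean and SD, for the 7 member differences with an unadjusted p under 0.05. Nsd1 1440972_at lies at -2.42, -2.71 and -2.20 in vehicle and -3.19, -3.32 and -3.04 in BPA arrays, and among the 7 only the Kdm6a arrays overlap.

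Other genes of the methylation machinery were taken from 7 lists of partners, related enzymes and cofactor genes, holding 66 genes, of which 61 had a kept probe set. None passed an adjusted p of 0.05. At an unadjusted p under 0.05, 1 was lower and 0 higher, beside 1.36% and 3.98% of all genes, and 3 were lower and 7 higher without overlap, beside 3.53% and 8.48%. Of the 61, 31 had differences below 0 and the median was -0.0035. Phf21a (BHC80), a reader of unmethylated H3K4 in the LSD1 complex, read 9.14, 9.16 and 9.35 in vehicle and 8.63, 8.85 and 9.04 in BPA samples (-0.38 ± 0.14, adjusted p 0.746). The COMPASS subunit Ncoa6 differed by -0.20 ± 0.11 and D2hgdh, which clears the demethylase inhibitor D-2-hydroxyglutarate, by -0.33 ± 0.16, both lower without overlap.

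Among the 7 higher partner genes without overlap, Smyd3 differed by 0.34 ± 0.15, Smyd5 by 0.25 ± 0.11, and Hif1an, the asparaginyl hydroxylase of HIF, by 0.22 ± 0.12. Uty, the Y-linked relative of Kdm6a, differed by 0.19 ± 0.11. The heterochromatin protein Cbx3 differed by 0.19, the G9a partner Wiz by 0.18 and the deacetylase Hdac1 by 0.11. By list, 8 of 9 subunits of Polycomb repressive complex 2 and its accessory proteins were below 0 (median -0.051), and 6 of 8 LSD1 partners (median -0.062). Subunits of the COMPASS family of complexes had 6 of 13 below 0 (median 0.045), and the H3K9 partners 3 of 8 (0.031). Medians were 0.14 for 7 other SET domain genes, 0.026 for 10 other JmjC genes and 0.10 for 7 cofactor genes.

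By array, the median deviation of the 41 member genes from their own 6-array mean was 0.062, -0.0048 and 0.047 in vehicle and -0.13, 0.031 and 0.0017 in BPA samples. The groups overlapped in this median, and BPA 1 was the lowest array. Over all genes it was 0.0055, -0.010 and -0.040 in vehicle and 0.030, 0.049 and -0.029 in BPA samples. Without BPA 1, the median difference over member genes was -0.035 in place of -0.071, and the number of member probe sets lower at an unadjusted p under 0.05 was 5 in place of 9; without control 1 that number was 4. With the 3' to 5' balance as a covariate it was 3, with 1 higher. In that fit 22 of the 79 member probe sets took the other sign, so that 47 in place of 63 lay below 0. Shares of all kept probe sets at an unadjusted p under 0.05 were not counted in these runs, so the changed counts cannot be set against a background.

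In the fit with that covariate the brightest Kmt2c probe set stayed at -0.41 and Nsd1 1440972_at at -0.69, while other members moved. Kdm5b 1427143_at moved from -0.42 to -0.93, and Kdm5a 1437106_at from -0.60 to -1.20. Kdm6a 1427672_a_at moved from -0.26 to -0.027. Kdm2a 1438890_at turned from -0.40 to 0.22, and Ehmt1, which has 1 kept probe set, from -0.067 to 0.31. The balance was separate between the groups, so its part and that of the treatment cannot be told apart. Values of this fit are given without standard errors, so which of them stayed or moved is description only. The adjusted p of the brightest Kmt2c probe set in it was 0.99996 by limma. The count without overlap was 7 among the 52 member probe sets above the 75th percentile of signal, all lower (13.5%, beside 5.1% lower and 7.06% higher over all). Without control 2 it was 21, all lower, beside 8.41% lower and 12.2% higher. Without control 3 it was 13 lower and 7 higher, beside 9.64% and 13.2%, and without BPA 3 26 lower and 2 higher, beside 14.8% and 19%.

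**Figure D4:**
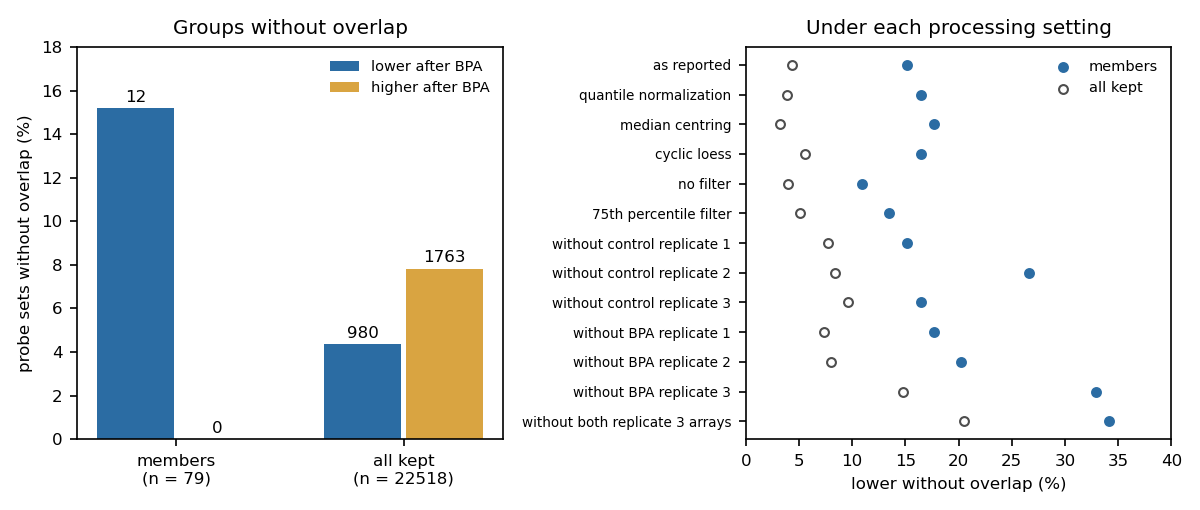
Left, the percentage of the 79 member probe sets and of all 22518 kept probe sets whose vehicle and BPA arrays do not overlap, lower (blue) or higher (yellow) after BPA, with the number above each bar; members have 12 lower and 0 higher. Right, the percentage lower without overlap among members (filled) and all kept probe sets (open) under each processing setting, where both shares are highest without both replicate 3 arrays, at 34.2% and 20.5%.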

How the data were processed

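Islet RNA of 3 vehicle and 3 BPA samples was measured on Affymetrix arrays; groups and replicate numbers came from the sample titles. The authors deposited log2 values, 1 per probe set and array, with array medians of 6.55 to 6.65. The submitters' processing notes name MAS5 and no version; no source used here says how probes were summarised and scaled, so dim probe sets, whose spread depends on it, are read with caution. The table used here has no detection calls.

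The table holds 45101 probe sets, and its 64 array controls were not tested. Genes were named from the 2016 platform annotation (34945 probe sets with 1 symbol, 932 with several, 9160 with none), and 34741 were matched to current symbols by Entrez id. A probe set shared by Kdm6b and another gene was left out. Probe sets with a mean above the median were fitted with limma 3.58.1 in R 4.3.3 (lmFit, then eBayes with an intensity trend; two-sided p-values adjusted by Benjamini-Hochberg over 22518). On simulated data of that size with 3 arrays per group, 51.8% of changes of 1 log2 unit and 87.5% of changes of 2 were recovered, and the number of arrays limits the precision. The simulated noise was independent between probe sets, without deviations shared by an array. Member differences ran from -0.71 to 0.37, so recovery of changes of their size was not measured.

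Every array's value was given for Kmt2c, for genes with a kept probe set at an unadjusted p under 0.05 or without overlap and a difference of at least 0.3, and for genes whose kept probe sets differed by more than 0.5 in their differences. Kmt5b, Smyd2, Setd4, Ezh2, Kdm8 and the dim Kdm6a probe set were added after their values were seen. Members and lists were chosen with earlier results of these data known. Alternatives covered normalization, filter, eBayes settings, replicate block, choice of probe set and left-out arrays; the 3' to 5' balance as a covariate was added after seeing the data. Figures were drawn with matplotlib 3.10.9.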

Additional observations from a re-analysis of the deposited data

How the results depend on the processing

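The counts of probe sets past an adjusted p of 0.05 were 0 in every alternative run, for members, partner genes and within-gene differences; the smallest member adjusted p was 0.202 without both replicate 3 arrays and 0.203 with the replicate block. The count of member probe sets without overlap, 12, became 7 with the 75th percentile filter and 36 without both replicate 3 arrays (27 lower, 9 higher; backgrounds 20.5% and 24.6%). Leaving out 1 array at a time gave 12 to 28: 21 without control 2, 20 without control 3 (13 lower, 7 higher) and 28 without BPA 3 (26 lower, 2 higher). Median centring gave 14 lower and 2 higher (backgrounds 3.19% and 8.48%). The median over member genes was negative in all 15 alternatives, among them the replicate block, which cannot change it. It ran from -0.13 without BPA 2 and -0.12 without control 2 to -0.035 without BPA 1. It was -0.042 without both replicate 3 arrays and -0.11 when each gene's kept probe sets were averaged. The median over all genes, not counted for those averages, reached 0.060 without BPA 3. With the balance covariate it was also negative, at -0.018 beside -0.10 for member genes. The brightest Kmt2c probe set ranged from -0.48 to -0.41 over left-out arrays and was -0.28 as the mean of its probe sets, with adjusted p-values from 0.211 to 0.99996 over 17 alternatives. Prdm2 1453068_at reversed to 0.15 with the 3' to 5' balance as a covariate; the cause was not tested. Of 1237 single probe set values, 1185 kept their size within the spread between replicates and 51 moved beyond it. The filters, the eBayes settings and the replicate block cannot change a probe set's difference, so their values were kept by construction. The pooled count therefore says little about any 1 setting. With the 3' to 5' balance as a covariate, 22 of the 79 member probe sets took the other sign. Same-numbered arrays deviated together with correlations of 0.476, 0.0781 and 0.706. Controls 1 and 3 correlated best with the BPA array of their own number, but control 2 with BPA 1 (0.427). Since control 2 did not match, the numbers were not taken as pairs in the reported fit. The replicate block gave 13 member probe sets lower and 1 higher at an unadjusted p under 0.05, in place of 9 and 0. The share of all kept probe sets at that threshold was not counted with the block. The larger count is therefore not read as a result about the members. With the block, the adjusted p for Kmt2c was 0.211 by limma.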

Other observations

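A few member probe sets varied far more between arrays than between groups. The range over the 6 arrays exceeded 1 log2 unit for 7 of the 119 member probe sets, against 10.1% of all probe sets. Setd3 1440163_at spanned 2.51 units. Kdm5c 1457930_at, below the filter, read 6.42, 7.08 and 7.12 in vehicle and 6.30, 5.51 and 6.67 in BPA samples. Kdm2a 1438890_at read 6.43, 6.89 and 7.28 against 6.51, 5.75 and 7.15. Kdm5b 1442278_at read 5.96, 7.29 and 6.74 against 6.46, 6.48 and 6.98, and Nsd1 1456916_at, below the filter, 5.85, 7.02 and 6.94 against 5.92, 5.80 and 6.56. These 5 probe sets, singled out after their values were seen, were all higher in control 2, control 3 and BPA 3 than in the other 3 arrays, a division that crosses the treatment groups.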
